A study of Homo sapiens with 6 samples.

Results

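The interferon genes described here are 47 protein-coding genes, chosen by symbol from the 58676 genes of the deposited table. They are interferon-stimulated genes, the interferon regulatory factors IRF1, IRF7 and IRF9, and the 2 subunits of the type I interferon receptor, and all 47 were found. STATs and HLA genes were not among them. Expression was measured by RNA sequencing in DCIS.COM, an established human breast cancer cell line of the basal type used as a model of ductal carcinoma in situ (DCIS). The NS control cells were transduced with a lentiviral PLKO.1 vector carrying a non-silencing shRNA, and the BCL9 KD cells with the same vector carrying an shRNA against BCL9, a transcriptional coactivator. Both groups therefore carried a lentiviral vector and grew under puromycin in medium with horse serum, the labels name no interferon treatment, and cells without a vector were not analysed here. The labels give 1 knockdown condition, so the loss of BCL9 and other effects of its shRNA cannot be told apart. The labels give 3 biological replicates per group, grown in flasks, and all 3 were used, although the methods speak of 2 replicates per condition for the differential expression analysis.

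Type I interferons bind a receptor made of IFNAR1 and IFNAR2, whose kinases activate a transcription complex that contains IRF9. This complex binds the interferon-stimulated response element (ISRE) in the promoters of interferon-stimulated genes. Interferon gamma acts through a different receptor and the gamma-activated site (GAS), and it induces IRF1 and the guanylate-binding proteins. Many of the induced proteins sense viral RNA or DNA, degrade RNA, block translation or hold virus at membranes, and epithelial cells express part of this set without infection.

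The depth was between 15222452 and 22712638 reads on genes in NS control samples and between 15665714 and 26949026 in BCL9 KD samples. BCL9 itself had 6.25, 6.24 and 5.34 FPKM (fragments per kilobase of gene, scaled to the depth of the library) in NS control replicates 1, 2 and 3 and 2.86, 2.78 and 2.59 in BCL9 KD replicates 1, 2 and 3. Its log2 fold change was -0.99 (adjusted p = 0.00773 in limma), so the target of the shRNA was lower in every library labelled as knockdown. The basal markers KRT5, KRT14, KRT17, TP63 and EGFR had at least 12.5 FPKM in NS control replicates, while the leukocyte markers PTPRC and CD3E had at most 0.013 FPKM in any sample. TP63 was higher and EGFR lower in BCL9 KD cells without overlap (adjusted p = 0.180 and 0.129 in limma). Of the luminal markers, GATA3 had 7.08 to 9.28 FPKM and FOXA1 2.97 to 3.65 FPKM, while ESR1 had at most 0.0980 FPKM and PGR 0. The fibroblast markers COL1A1 and PDGFRB had means of 0.555 and 0.0688 FPKM. Among the markers of leukocytes, fibroblasts and endothelium, PECAM1 passed the test, with 2.28, 2.29 and 1.72 FPKM in NS control and 3.91, 3.11 and 3.32 FPKM in BCL9 KD replicates (adjusted p = 0.0477 in limma). CD14 had 0.560, 0.288 and 0.418 FPKM against 1.38, 0.964 and 0.778 FPKM (adjusted p = 0.0811 in limma), while VWF had at most 0.0307 FPKM. The part of these markers in the results was not tested. In bulk RNA, a change in the share of cells that express a gene and a change in RNA per cell cannot be told apart.

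Most of the interferon genes were expressed at low levels in both groups. Only 6 of the 47 had a mean of at least 10 FPKM over the 6 samples, 23 were between 1 and 10 FPKM, 5 between 0.5 and 1 FPKM, and 13 below 0.5 FPKM. Genes below 0.5 FPKM on average were not tested. BST2 had the highest mean, 157 FPKM, followed by IFITM3 with 45.5, TRIM25 with 29.4, PSMB8 with 16.0, EIF2AK2 with 15.3 and OAS3 with 10.8 FPKM. In NS control samples the values of IFITM3 and TRIM25, of PSMB8 and EIF2AK2, and of EIF2AK2 and OAS3 overlapped, so the order within these pairs was not clear. The 13 genes below the minimum were IFNAR2, IRF9, OAS2, OASL, IFIT1, SAMD9L, RSAD2, MX1, MX2, HERC5, IFI27, IFI44L and XAF1. They include MX1 and RSAD2, which interferon induces strongly in many cell types, with mean levels of 0.106 and 0.010 FPKM. XAF1 had 0 reads in every sample, where 3 reads would have been between 0.0168 and 0.0298 FPKM.

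**Figure D1:**
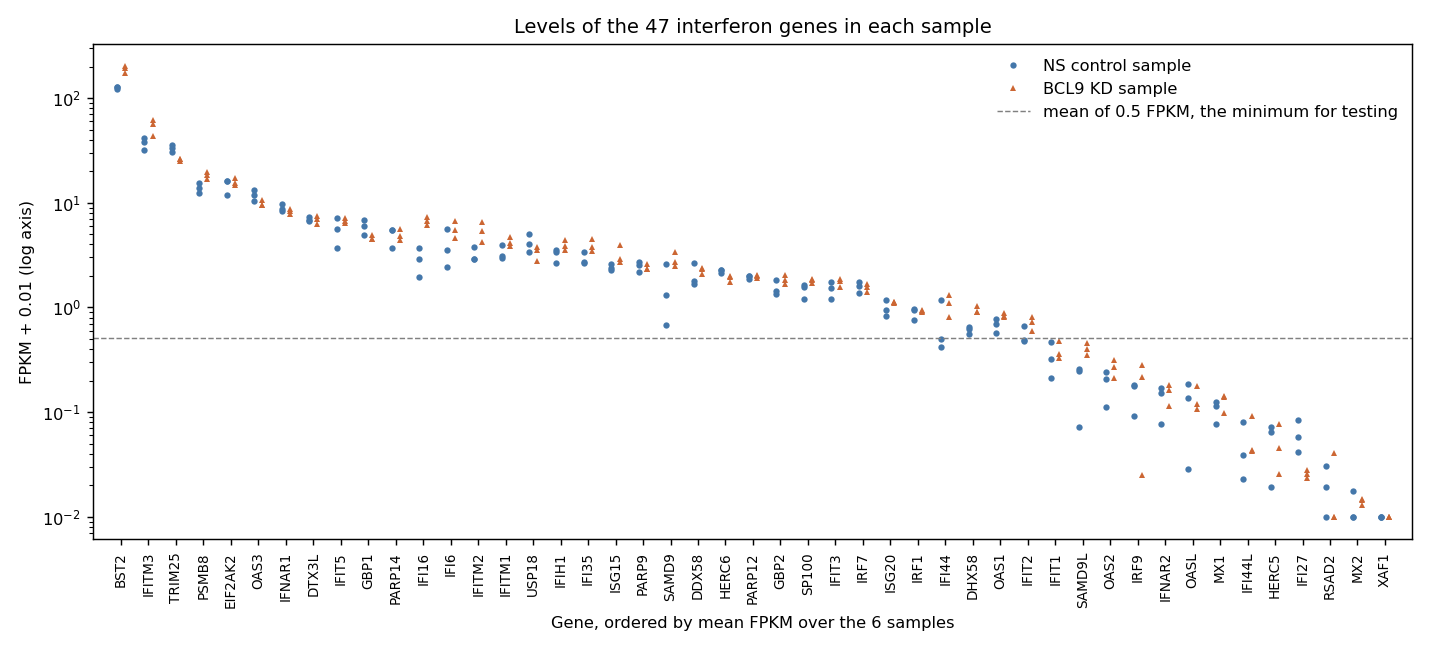
FPKM plus 0.01 (log axis) of the 47 interferon genes in 3 NS control samples (circles) and 3 BCL9 KD samples (triangles), ordered by mean level, with the minimum for testing as a dashed line. The levels span from 157 FPKM for BST2 to 0 for XAF1, and 13 genes lie below the minimum.

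Among the 13 low genes, IRF9 and IFNAR2 share much of their span with another protein-coding model on the same strand. IRF9, the DNA-binding subunit of the type I interferon transcription complex, had 0.0812, 0.169 and 0.173 FPKM in NS control and 0.0149, 0.205 and 0.269 FPKM in the BCL9 KD replicates 1, 2 and 3. These values rest on 68 reads over the 6 samples. The whole span of IRF9 (100%) lies within another protein-coding model on the same strand, and the part of this overlap in the low count was not tested. IFNAR2 had 70 reads over the 6 samples, and 52.8% of its span is shared with another same-strand model. The level of IRF9 and IFNAR2 in these cells is therefore uncertain.

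Of the 34 interferon genes tested, 3 passed limma at an adjusted p-value under 0.05. IFI16 and BST2 were higher and TRIM25 was lower in BCL9 KD cells. These 3 genes are 8.82% of the members tested, against 5.87% of all 13745 genes tested, so the share was near the background. In the higher direction the background was 2.96% and in the lower direction 2.91%. Before adjustment, 11 members had a p-value under 0.05 (32.4%), against 27.5% of all genes. The groups did not overlap for 13 members (38.2%), 10 of them higher and 3 lower in BCL9 KD cells, against 34.2% of all genes. The log2 fold change was above 0 for 25 of the 34 members (73.5%), against 55.4% of all genes, and its median was 0.19 against 0.04 over all genes tested. In the alternatives that tested the same 34 genes, between 22 and 28 were above 0. The fold changes are on the scale of log2(FPKM + 0.5), which makes those of low genes smaller than the ratio of FPKM. With NS control replicate 2, BCL9 KD replicate 2 or BCL9 KD replicate 3 left out, limma called 0 members, with 7 (20.6%) at an unadjusted p-value under 0.05 each time, against 16.9% to 19% of all genes. Without NS control replicate 3 it called 5 (14.7%), against 12.6% of all genes. A correction for GC content called 8 members (23.5%), against 12% of all genes, and voom on the recovered reads called the same 3 genes, against 10.2% of all genes.

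**Figure D2:**
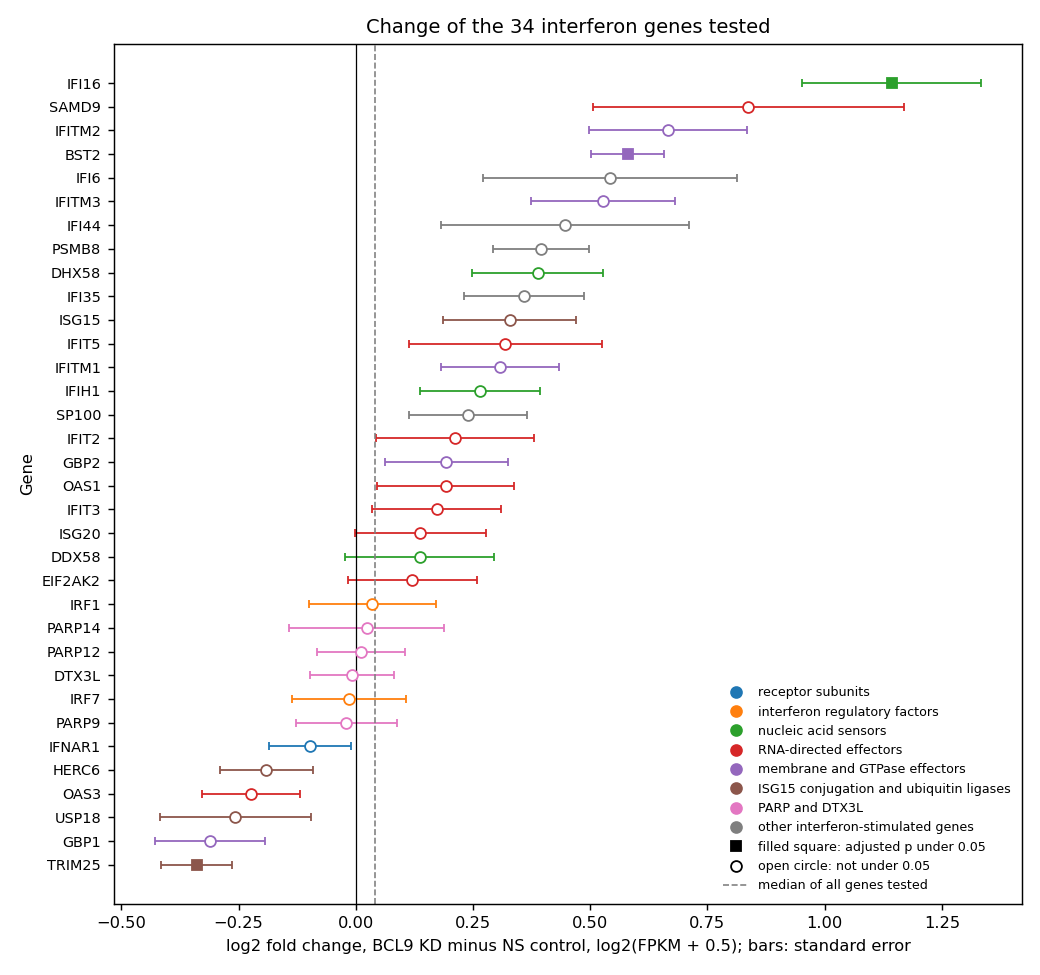
Log2 fold change, BCL9 KD minus NS control, with its standard error as bars, for the 34 interferon genes tested, coloured by role, with squares for an adjusted p-value under 0.05. IFI16 (1.14) and BST2 (0.58) lie at the upper end and TRIM25 (-0.34) at the lower end, and the dashed line marks the median of all genes tested, 0.04.

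To show the regulatory sequence beside the expression values, the promoters were searched for 2 motifs on both strands. The ISRE core was written as TTTC, any 2 bases, TTTC, which reads GAAA, any 2 bases, GAAA on the other strand. The GAS was written as TTC, any 3 bases, GAA. RefSeq promoter windows on GRCh38.p14, from 250 bases before to 50 bases after a gene start, were matched for 37 members with 49 windows. Those without a window were IFNAR2, IRF7, DHX58, OAS2, OASL, IFIT2, IFITM2, MX2, GBP2 and USP18. The ISRE core was in 29 of the 49 windows (59.2%), against 3.57% of all 35116 windows, and the GAS was in 11 (22.4%), against 7.66%. The genes were chosen as interferon-stimulated, so this share describes them and a match is not a shown binding site. An ISRE core was held by 25 of the 37 genes. Of these, 19 were tested, with a median log2 fold change of 0.26, and 1 was called, BST2. Of the 12 genes without the core in any window, 9 were tested, with a median of 0.14, and 2 were called, IFI16 and TRIM25. Over all genes the median was 0.04 and 5.87% were called, and the difference between genes with and without the core was not tested.

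**Figure D3:**
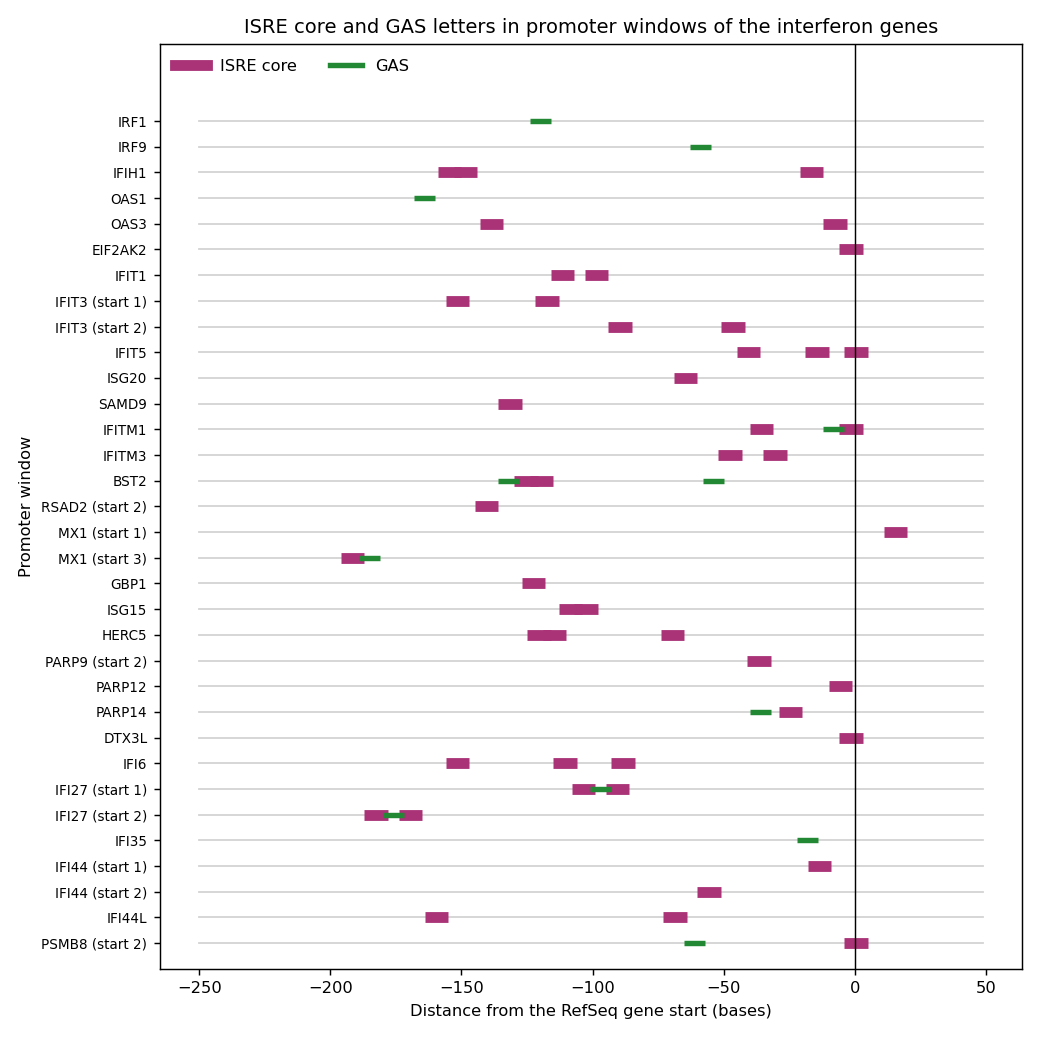
Position of the ISRE core (thick bars) and the GAS (thin bars) in each promoter window that holds either, as the distance in bases from the RefSeq gene start. BST2 and ISG15 each have 2 overlapping cores, beginning 130 and 124 bases before the start in BST2 and 113 and 107 bases before it in ISG15.

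The 150 bases before the gene start are printed for the 3 called genes and, for comparison, for IFITM3 and ISG15, each 5′ to 3′ on the strand of the gene with ISRE core and GAS letters in capitals. They lie on GRCh38.p14 at chr19:17405631-17405780 on the minus strand for BST2, chr1:159009757-159009906 on the plus strand for the second of 2 starts of IFI16, chr17:56914050-56914199 on the minus strand for TRIM25, chr11:320861-321010 on the minus strand for IFITM3 and chr1:1013347-1013496 on the plus strand for ISG15.
BST2: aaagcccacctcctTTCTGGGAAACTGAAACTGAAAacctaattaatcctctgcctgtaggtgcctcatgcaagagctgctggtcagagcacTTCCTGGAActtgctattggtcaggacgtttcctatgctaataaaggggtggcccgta
IFI16: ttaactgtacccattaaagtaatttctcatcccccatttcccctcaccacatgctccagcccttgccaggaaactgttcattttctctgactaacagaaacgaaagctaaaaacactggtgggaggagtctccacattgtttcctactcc
TRIM25: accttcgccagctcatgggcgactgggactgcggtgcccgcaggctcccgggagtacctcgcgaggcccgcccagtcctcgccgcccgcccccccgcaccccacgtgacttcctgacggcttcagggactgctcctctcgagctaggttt
IFITM3: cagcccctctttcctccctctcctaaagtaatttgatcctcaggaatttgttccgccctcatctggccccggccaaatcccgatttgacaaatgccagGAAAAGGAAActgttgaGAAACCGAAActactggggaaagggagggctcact
ISG15: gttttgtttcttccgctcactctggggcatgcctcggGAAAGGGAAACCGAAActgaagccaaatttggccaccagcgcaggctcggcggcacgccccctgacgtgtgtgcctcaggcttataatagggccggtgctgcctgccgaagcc
In BST2 the capitals join a GAS at 136 bases, the 2 overlapping ISRE cores and, apart from them, a GAS at 58 bases before the start. IFITM3 has ISRE cores at 52 and 35 bases before its start. The stretches of IFI16 and TRIM25 hold neither set of letters, which says nothing about sites elsewhere.

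Among the nucleic acid sensors, IFI16 had the largest log2 fold change of the 34 members tested. IFI16 (ENSG00000163565, chromosome 1 of hg38 from 158999968 to 159055155) encodes a sensor of DNA. Its expression was 1.94, 2.87 and 3.67 FPKM in NS control and 6.68, 6.15 and 7.22 FPKM in the BCL9 KD replicates 1, 2 and 3. All 3 BCL9 KD values lay above all NS control values, and the NS control samples differed among themselves by more than the BCL9 KD samples. The means were 2.83 ± 0.868 FPKM (SD, n = 3) and 6.68 ± 0.538 FPKM (SD, n = 3), a ratio of 2.37 and a log2 fold change of 1.14 ± 0.191 (SE, adjusted p = 0.0290 in limma). The values rest on between 233 and 877 reads per sample. The limma adjusted p was 0.122 without NS control replicate 2, 0.0531 without BCL9 KD replicate 1, 0.123 without BCL9 KD replicate 2 and 0.147 without BCL9 KD replicate 3, and 0.0891 with no filter on low values.

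DHX58, DDX58 and IFIH1 encode the RIG-I-like receptors of viral RNA, with DHX58 (also LGP2) a regulator of the other two. DHX58 had 0.607, 0.643 and 0.547 FPKM in NS control and 1.03, 0.888 and 0.897 FPKM in BCL9 KD replicates, with no overlap between the groups. Its log2 fold change was 0.39 ± 0.140 (SE, adjusted p = 0.133 in limma), or 0.62 with voom, and it rests on between 32 and 92 reads per sample. IFIH1 (MDA5) had means of 3.20 ± 0.463 FPKM in NS control and 3.93 ± 0.451 FPKM in BCL9 KD cells (SD, n = 3 each). DDX58 (RIG-I) had 1.68, 1.79 and 2.66 FPKM against 2.33, 2.06 and 2.39 FPKM. In IFIH1 and DDX58 the groups overlapped through NS control replicate 3. Of the 4 sensors, IFI16 alone passed the test (25%, against 5.87% of all genes tested), and a share of 4 genes says little about the group.

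Of the 9 membrane and GTPase effectors, 6 were tested and BST2 alone passed (16.7%, against 5.87% of all genes tested). BST2 (ENSG00000130303, chromosome 19 from 17402939 to 17405648) encodes tetherin, which holds budding virus at the cell surface. Its expression was 128, 123 and 127 FPKM in NS control and 172, 200.3 and 194 FPKM in the BCL9 KD replicates 1, 2 and 3. Values were close together in NS control, and every BCL9 KD value was above them. The means were 126 ± 2.57 FPKM (SD, n = 3) and 189 ± 14.8 FPKM (SD, n = 3), and a log2 fold change of 0.58 ± 0.0777 (SE, adjusted p = 0.0171 in limma). The limma adjusted p was 0.0948 without NS control replicate 2, 0.116 without BCL9 KD replicate 2 and 0.124 without BCL9 KD replicate 3, and 0.0580 with no filter on low values, while the log2 fold change stayed between 0.54 and 0.65 with any replicate left out. At least 2158 reads were counted on BST2 in each sample.

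The IFITM proteins restrict the entry of virus through endosomal and surface membranes. IFITM3 had 41.4, 32.2 and 37.7 FPKM in NS control and 43.2, 62.3 and 56.4 FPKM after BCL9 KD, and IFITM2 had 3.77, 2.88 and 2.90 FPKM against 4.22, 5.36 and 6.58 FPKM. For both genes the groups did not overlap, and BCL9 KD replicate 1 was the knockdown sample nearest to the controls. The log2 fold change was 0.53 ± 0.153 (SE, adjusted p = 0.0851 in limma) for IFITM3 and 0.67 ± 0.169 (SE, adjusted p = 0.0635 in limma) for IFITM2. Neither passed the test, and both did when BCL9 KD replicate 1 was left out, with limma adjusted p-values of 0.0403 and 0.0450. With any other replicate left out neither passed, with limma adjusted p-values up to 0.263 for IFITM3 and 0.217 for IFITM2. The log2 fold change was then as low as 0.42 for IFITM3 and 0.52 for IFITM2. IFITM1 had 2.94, 3.11 and 3.95 FPKM in NS control and 3.88, 4.12 and 4.67 FPKM in BCL9 KD replicates. The IFITM genes are close copies of each other, and on the same strand 100% of the span of IFITM1 and 23.1% of that of IFITM2 overlap the other gene, so how reads were divided among them is uncertain.

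The guanylate-binding proteins and MX proteins are interferon-induced GTPases. GBP1 had 4.96, 5.94 and 6.79 FPKM in NS control and 4.87, 4.50 and 4.50 FPKM in BCL9 KD replicates. Every BCL9 KD value was lower than every NS control value, with a narrow gap at NS control replicate 1. Its log2 fold change was -0.31 ± 0.118 (SE, adjusted p = 0.145 in limma). GBP2 had means of 1.54 FPKM in NS control and 1.82 FPKM in BCL9 KD cells, with overlap between the groups. MX2 had 5 reads in all 6 samples together.

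**Figure D4:**
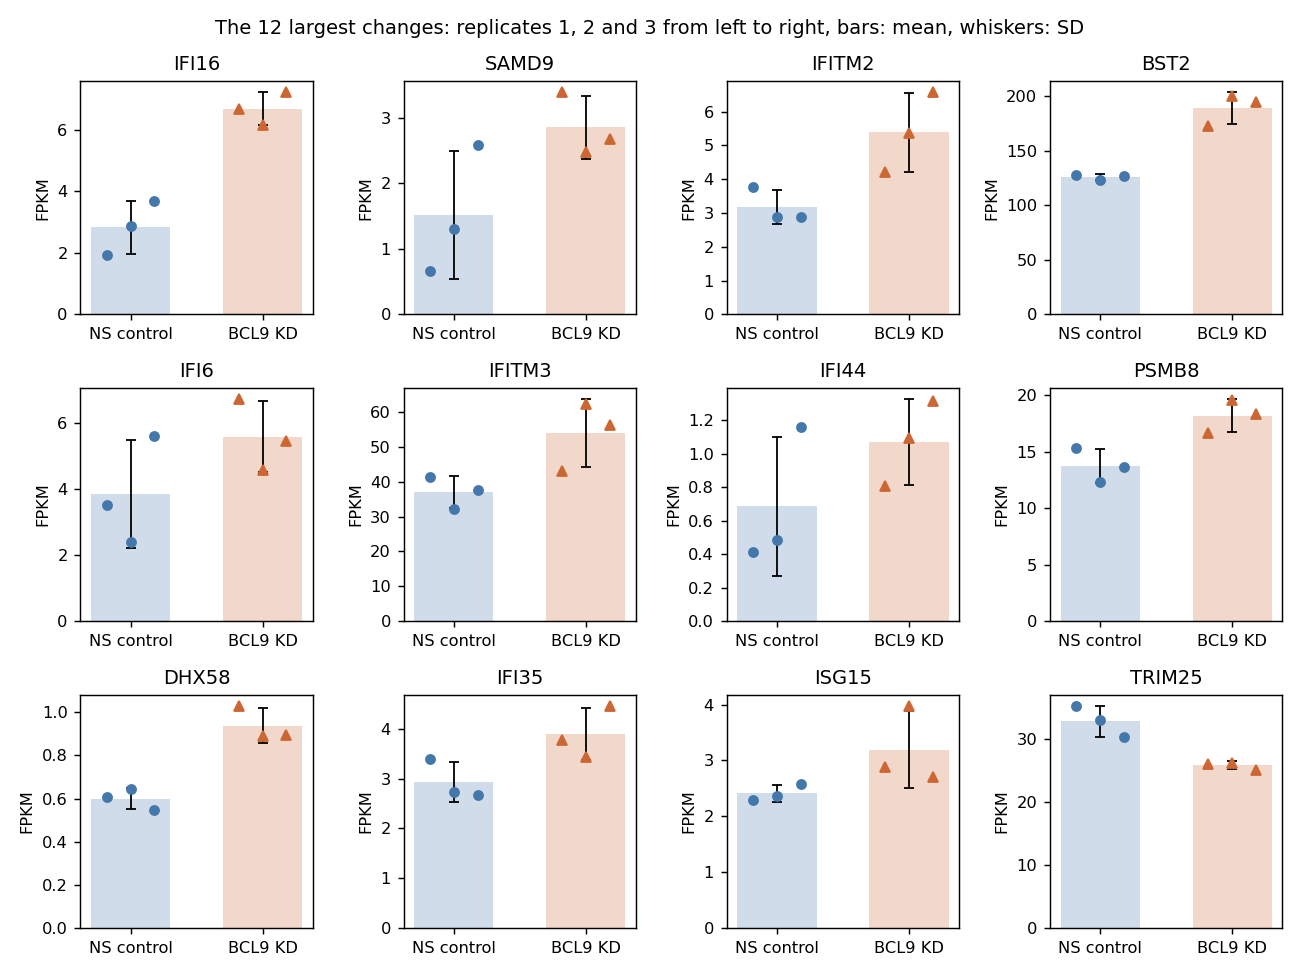
FPKM of the 12 members with the largest absolute log2 fold change in NS control samples (circles) and BCL9 KD samples (triangles), in the order of replicates 1, 2 and 3, with bars at the mean and whiskers of 1 SD. The groups overlap in SAMD9, IFI6 and IFI44 and do not in the other 9 genes, of which TRIM25 is the one that is lower in BCL9 KD cells.

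Of the 5 genes of ISG15 conjugation and ubiquitin ligation, 4 were tested and TRIM25 alone passed (25%, against 5.87% of all genes tested). A share of 4 genes says little about the group. TRIM25 (ENSG00000121060, chromosome 17 from 56887909 to 56914038) encodes a ubiquitin ligase that acts in RIG-I signaling. Its expression was 35.3, 33.1 and 30.4 FPKM in NS control and 26.2, 26.3 and 25.1 FPKM in the BCL9 KD replicates 1, 2 and 3. Each BCL9 KD value lay under the lowest NS control value. The means were 32.9 ± 2.45 FPKM (SD, n = 3) and 25.9 ± 0.645 FPKM (SD, n = 3), a ratio of 0.786 and a log2 fold change of -0.34 ± 0.0755 (SE, adjusted p = 0.0497 in limma). This value was just inside the threshold. The limma adjusted p was 0.0575 without NS control replicate 1, 0.174 without NS control replicate 2, 0.0772 without BCL9 KD replicate 1, 0.196 without BCL9 KD replicate 2 and 0.208 without BCL9 KD replicate 3. It was also 0.0505 with 0.1 FPKM added in place of 0.5, 0.0631 with median-of-ratios scaling and 0.101 with no filter.

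ISG15 encodes a ubiquitin-like protein that is attached to other proteins. It had 2.29, 2.36 and 2.58 FPKM in NS control and 2.88, 3.98 and 2.71 FPKM in BCL9 KD replicates. The groups did not overlap, BCL9 KD replicate 2 stood above the other samples, and the values rest on between 37 and 101 reads. The log2 fold change of ISG15 was 0.33 ± 0.142 (SE, adjusted p = 0.191 in limma), and it was 0.18 without BCL9 KD replicate 2. USP18, which removes ISG15 from proteins and restrains the type I receptor, had 5.03, 3.34 and 4.04 FPKM in NS control and 3.77, 3.52 and 2.79 FPKM in BCL9 KD replicates, with overlap. HERC6, a member of the HERC family of ubiquitin ligases, had 2.29, 2.27 and 2.13 FPKM against 1.96, 1.72 and 1.99 FPKM, without overlap. The log2 fold change was -0.26 for USP18 (adjusted p = 0.337 in limma) and -0.19 for HERC6 (adjusted p = 0.256 in limma). That of USP18 was -0.12 without NS control replicate 1 and -0.15 without BCL9 KD replicate 3. HERC5, the main ligase for ISG15, had 21 reads in all.

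Of the 12 RNA-directed effectors, 8 were tested and none passed in limma after adjustment, against 5.87% of all genes tested. SAMD9 alone was at an unadjusted p-value under 0.05 (12.5% of the 8, against 27.5% of all genes). SAMD9 (ENSG00000205413), which restricts poxviruses, had 0.668, 1.30 and 2.59 FPKM in NS control and 3.39, 2.48 and 2.68 FPKM in the BCL9 KD replicates 1, 2 and 3. NS control replicate 3 lay among the BCL9 KD values, and the coefficient of variation in NS control was 64.5%. The log2 fold change was 0.84 ± 0.332 (SE, adjusted p = 0.161 in limma), and it passed without NS control replicate 3 (adjusted p = 0.0331 in limma). Without NS control replicate 1 the log2 fold change was 0.50 (adjusted p = 0.245 in limma). Its neighbour SAMD9L was below the minimum for testing, with 0.0617, 0.236 and 0.249 FPKM in NS control and 0.389, 0.343 and 0.447 FPKM in BCL9 KD replicates, on 236 reads in all.

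OAS1, OAS2 and OAS3 make the messenger that activates RNase L, and EIF2AK2 encodes PKR, a kinase that blocks translation on double-stranded RNA. OAS3 had 13.1, 11.7 and 10.3 FPKM in NS control and 10.7, 9.58 and 9.48 FPKM after BCL9 KD, and the groups overlapped through NS control replicate 3. Its log2 fold change was -0.22 ± 0.104 (SE, adjusted p = 0.216 in limma), and it was -0.14 without NS control replicate 1 or with the GC correction. OAS1 had 0.685, 0.759 and 0.558 FPKM in NS control and 0.801, 0.878 and 0.813 FPKM in BCL9 KD replicates. EIF2AK2 had 11.7, 16.1 and 16.3 FPKM against 17.4, 14.9 and 15.3 FPKM, with NS control replicate 1 apart from the other 5 samples. OAS2 and OASL had means over the 6 samples of 0.216 and 0.116 FPKM.

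The IFIT proteins bind viral RNA. IFIT5 had 3.67, 5.65 and 7.12 FPKM in NS control and 6.74, 6.40 and 7.09 FPKM in BCL9 KD replicates, so the controls covered a wider range than the knockdown samples. The means over the 6 samples were 1.60 FPKM for IFIT3, 0.617 for IFIT2 and 0.350 for IFIT1, all lower than the 6.11 FPKM of IFIT5. ISG20, an RNA exonuclease, had 0.970 ± 0.176 FPKM in NS control and 1.11 ± 0.0161 FPKM in BCL9 KD cells (SD, n = 3 each), with overlap. IFIT1, IFIT2 and IFIT3 lie within the span of LIPA on the opposite strand, which had a mean of 1393 reads per sample. The sources used here do not say whether counting used strand, so reads of LIPA and of the IFIT genes may not be separable.

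The receptor, the regulatory factors and the PARP and DTX3L group showed the smallest differences. IFNAR1 had 8.28, 9.68 and 8.64 FPKM in NS control and 8.31, 7.73 and 8.69 FPKM in BCL9 KD replicates, with overlap. IRF1 had means of 0.882 ± 0.116 and 0.913 ± 0.0204 FPKM (SD, n = 3 each), and IRF7, which amplifies interferon production, had 1.57 ± 0.181 and 1.55 ± 0.139 FPKM (SD, n = 3 each). PARP9 and its partner DTX3L, PARP12 and PARP14 had log2 fold changes between -0.02 and 0.02. In each of these genes the difference between the group means was smaller than the larger of the 2 SDs. A difference that does not pass the test is not shown to be absent.

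Of the 8 other interferon-stimulated genes, 5 were tested, and all 5 had log2 fold changes above 0, none of them past the threshold in limma, with 2 at an unadjusted p-value under 0.05. Over all genes 55.4% were above 0 and 27.5% had an unadjusted p-value under 0.05. Of the 3 not tested, IFI27 had 17 reads in all, with lower values in each BCL9 KD sample than in any NS control sample. PSMB8, a catalytic subunit of the immunoproteasome, had 15.3, 12.3 and 13.7 FPKM in NS control and 16.7, 19.6 and 18.3 FPKM in BCL9 KD replicates, without overlap. Its log2 fold change was 0.39 ± 0.102 (SE, adjusted p = 0.0664 in limma), and it passed without NS control replicate 1 (adjusted p = 0.0475 in limma). With any other replicate left out PSMB8 did not pass, with limma adjusted p-values up to 0.239. PSMB8 overlaps PSMB9 on the opposite strand for 14.2% of its span. IFI35 had 3.39, 2.73 and 2.66 FPKM against 3.79, 3.44 and 4.46 FPKM, a log2 fold change of 0.36 ± 0.128 (SE, adjusted p = 0.130 in limma). The lowest IFI35 value in BCL9 KD cells was just above the highest in NS control.

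IFI6, a mitochondrial and endoplasmic reticulum protein, and IFI44 varied more within the controls. IFI6 had 3.51, 2.40 and 5.62 FPKM in NS control and 6.74, 4.59 and 5.46 FPKM in BCL9 KD replicates, a log2 fold change of 0.54 ± 0.271 (SE, adjusted p = 0.242 in limma). IFI44 had 0.410, 0.485 and 1.16 FPKM against 0.805, 1.09 and 1.32 FPKM, a log2 fold change of 0.45 ± 0.264 (SE, adjusted p = 0.311 in limma). In both genes NS control replicate 3 lay within the range of the BCL9 KD samples. IFI6 passed without NS control replicate 3 (log2 fold change 0.82, adjusted p = 0.0481 in limma), and without NS control replicate 2 its log2 fold change was 0.28 (adjusted p = 0.497 in limma). That of IFI44 was 0.28 without NS control replicate 1, 0.72 without NS control replicate 3, 0.23 with the GC correction and 0.85 with voom, and it did not pass in these fits. SP100, a nuclear body protein, had 1.46 ± 0.238 FPKM in NS control and 1.80 ± 0.0731 FPKM in BCL9 KD cells (SD, n = 3 each).

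For single genes, a two-sided exact permutation test of 3 samples against 3 gives p = 0.1 at the smallest, which every gene without overlap reached. The 18 tested members not given one by one with a fold change had log2 fold changes between -0.10 and 0.32.

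The controls differed among themselves in these genes. NS control replicate 1 had the lowest value of the 6 samples for 14 of the 34 genes tested, NS control replicate 2 for 8 and NS control replicate 3 for 5. The median deviation of the 34 genes from their 6-sample mean was -0.15 on the log2 scale in NS control replicate 1, -0.10 in replicate 2 and 0.02 in replicate 3, and it was between 0.02 and 0.09 in the BCL9 KD samples. Over all genes tested it was -0.06 in NS control replicate 1. The median coefficient of variation of the members was 15.4% in NS control and 8.45% in BCL9 KD samples, and over all genes tested it was 12.5% and 8.08%. The 14 genes lowest in NS control replicate 1 had a median transcript GC content of 43.0%, against 54.0% for the other 20, and the part of GC content in these values was not tested. The median log2 fold change of the members was 0.13 without NS control replicate 1 and 0.29 without NS control replicate 3, when that of all genes was 0.0034 and 0.06.

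**Figure D5:**
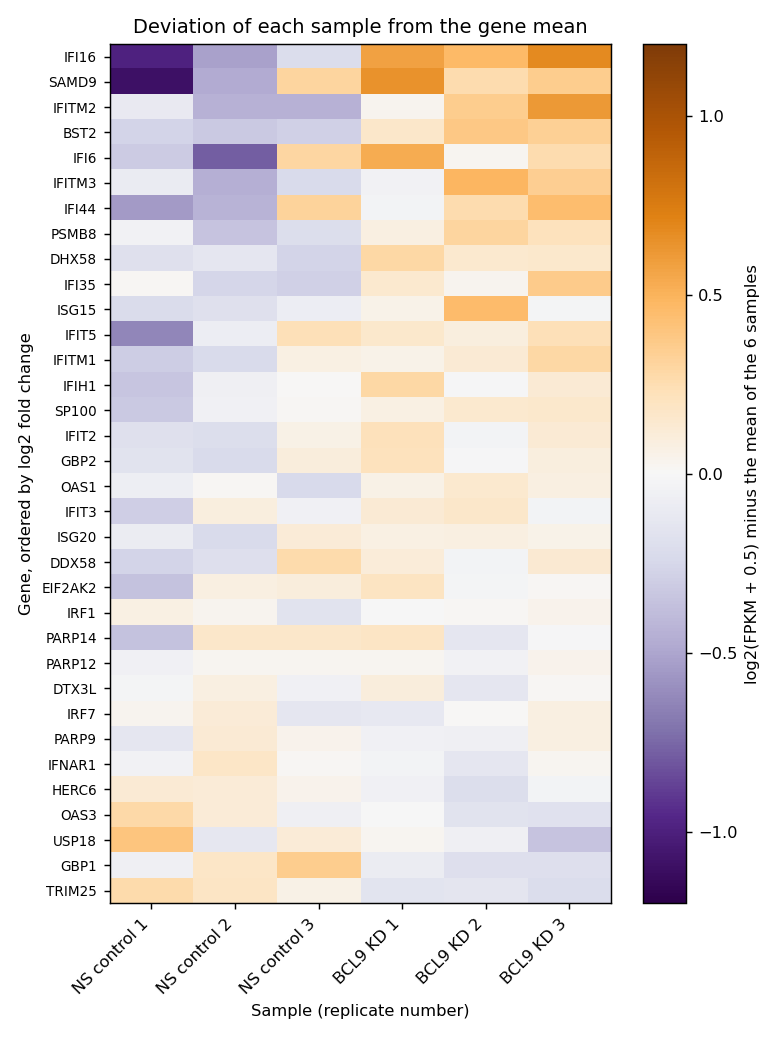
Deviation of each sample from the mean of the 6 samples, in log2(FPKM + 0.5), for the 34 interferon genes tested, ordered by log2 fold change. NS control replicate 1 is the lowest sample for 14 genes, among them SAMD9, IFI16 and IFIT5, and NS control replicate 3 is closer to the BCL9 KD samples in SAMD9, IFI6 and IFI44.

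Of 106 other genes of interferon signaling, 66 were tested and 7 were called, 5 higher and 2 lower, which is 10.6% against 5.87% of all genes. Their median log2 fold change was 0.05. Of 21 interferon ligand genes, IFNE alone was tested, with a log2 fold change of 0.23, and IFNB1 was among the 16 with 0 reads in every sample. The whole span of IFNE (100%) overlaps MIR31HG on the same strand. IFNE had a mean of 23.3 reads per sample and MIR31HG 31.3, so the level of IFNE is uncertain.

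Of the 66 tested, 37 had a log2 fold change above 0 (56.1%, against 55.4% of all genes) and 29 below. The 2 pathway genes called lower were ZNFX1 and ADAR. ZNFX1, a helicase that binds viral RNA, had 9.88, 8.60 and 7.18 FPKM in NS control and 4.50, 4.18 and 4.41 FPKM in BCL9 KD replicates, a log2 fold change of -0.89 ± 0.118 (SE, adjusted p = 0.0171 in limma). ADAR, the editing enzyme that marks the cell's own double-stranded RNA, had 70.5, 71.3 and 62.9 FPKM against 52.2, 45.4 and 46.4 FPKM, a log2 fold change of -0.50 ± 0.0852 (SE, adjusted p = 0.0295 in limma). For both genes every BCL9 KD value was below every NS control value. ZNFX1 overlaps DDX27 on the opposite strand for 15.1% of its span. MAVS, the adaptor of the RIG-I-like receptors, had means of 15.7 and 11.2 FPKM without overlap, and it missed the threshold (log2 fold change -0.47, limma adjusted p = 0.0522).

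The 5 called higher were APOBEC3G, PSMB9, LGALS3BP, PLSCR1 and TMEM173. APOBEC3G, a cytidine deaminase that restricts retroviruses, had 8.42, 8.07 and 7.42 FPKM in NS control and 14.9, 15.1 and 15.5 FPKM in BCL9 KD replicates, a log2 fold change of 0.89 ± 0.0738 (SE, adjusted p = 0.00703 in limma). Its span overlaps that of APOBEC3F on the same strand, so part of its reads may be uncertain. PSMB9, the immunoproteasome partner of PSMB8, had 3.14 ± 0.283 and 4.69 ± 0.0654 FPKM (SD, n = 3 each), a log2 fold change of 0.51 (adjusted p = 0.0303 in limma). TAP1 covers 56.8% of its span on the opposite strand, with a mean of 919 reads per sample against 238 for PSMB9, so its reads may not be separable from those of TAP1. LGALS3BP, a secreted glycoprotein, had a log2 fold change of 0.49 (adjusted p = 0.0189 in limma), PLSCR1 of 0.44 (adjusted p = 0.0464 in limma) and TMEM173, which encodes the DNA-sensing adaptor STING, of 0.41 (adjusted p = 0.0416 in limma). PLSCR1 had a limma adjusted p of 0.0843 with the GC correction. That of TMEM173 was 0.0631 with median-of-ratios scaling and 0.0798 with quantile normalization. PLSCR1 and TMEM173 each passed in 2 of the 6 fits with a replicate left out. None of these 5 genes had overlapping groups. IFNGR1, a subunit of the interferon gamma receptor, and TBK1, the kinase downstream of STING and MAVS, had log2 fold changes of 0.56 (adjusted p = 0.0877 in limma) and 0.60 (adjusted p = 0.191 in limma). The groups overlapped for TBK1, and its log2 fold change was 0.30 without NS control replicate 1 and 0.38 with the GC correction. Without NS control replicate 3, TBK1, IFNGR1 and MAVS passed, with adjusted p-values of 0.0478, 0.0448 and 0.0306 in limma. With any other replicate left out, none of these genes passed. Without NS control replicate 2, BCL9 KD replicate 2 or BCL9 KD replicate 3, limma called 0 of the 66 genes, with 18 to 20 below 0.05 before adjustment (27.3% to 30.3%, against 16.9% to 19% of all genes). Without NS control replicate 3 it called 15 (22.7%), against 12.6% of all genes.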

How the data were processed

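RNA sequencing was measured in 6 samples. Per the submitters' notes and the methods, the authors used STAR to align the reads to hg38, counted them per gene with HTSeq 0.6.1 and deposited FPKM, computed from the counted reads and the gene length. The table also holds this length in bases (a unit other than expression). FPKM multiplied by length, divided by the step that 1 read is worth in each sample, gave whole reads within a tolerance of 0.1 for 100% of values above 0, and their sum gave the depth. The labels name no molecular identifiers, so depth speaks of counting error alone.

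Members and gene lists were chosen with earlier results of these data known. Samples were grouped by their labels and none was left out. log2(FPKM + 0.5) was compared, BCL9 KD minus NS control, with limma 3.58.1 (empirical Bayes with trend, R 4.3.3) over 13745 genes with a mean of at least 0.5 FPKM, with Benjamini-Hochberg adjustment over all of them and a threshold of 0.05. The methods of the study name a test for counts, which FPKM are not. The fit was also run on simulated data as a check of the code, and no result given here rests on that run. Members with an adjusted p-value under 0.05 and the 12 largest absolute changes are given in full, together with the pathway genes called and the 3 largest changes each way. Values of other members are shown by role, and GBP1, USP18, HERC6 and OAS3 were given a fold change after their values were seen. Alternatives were an added 1 or 0.1 FPKM, no filter or a mean of at least 1 FPKM, median-of-ratios scaling, quantile normalization, a replicate block, voom on recovered reads, a loess correction (span 0.3) for transcript GC content, known for 98.8% of the genes, that correction with the block, and each replicate left out. Promoter sequences came from RefSeq on GRCh38.p14. The labels call the samples biological replicates grown in flasks, and the methods give 1 flask per replicate, so p-values measure the spread between flasks.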

Additional observations from a re-analysis of the deposited data

How the results depend on the processing

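Over all genes, 807 were called, with 142 without a filter on low values, 1403 with voom, 1633 with the GC correction and 174 when that correction was joined to the replicate block. Of the members, 3 were called, with 0 without the filter (limma, 10 at an unadjusted p-value under 0.05), 3 with voom and 8 with the GC correction, which added IFITM2, IFITM3, PSMB8, IFI35 and GBP1. Of the other pathway genes, 7 were called, with 1 without the filter, 12 with voom, 13 with the GC correction and 3 when it was joined to the replicate block. Leaving out 1 replicate at a time, the counts ran from 5 to 1729 over all genes. They ran from 0 to 5 of the members and from 0 to 15 of the other pathway genes. The members without overlap between groups numbered 13 to 24 in these fits. Their share was 70.6% (24) without NS control replicate 3, against 52.4% of all genes in the same samples. Without NS control replicate 1 it was 38.2%, against 46.1% of all genes, and without BCL9 KD replicate 1 it was 44.1%, against 47.9%. Without NS control replicate 2, BCL9 KD replicate 2 or BCL9 KD replicate 3 the members' share was above that of all genes. The log2 fold change of BCL9 lay between -1.06 and -0.95, past the threshold in 3 of 6 fits. BCL9 did not pass without NS control replicate 2, BCL9 KD replicate 2 or BCL9 KD replicate 3. The cause of these changes was not tested. For the genes whose log2 fold change is printed with an adjusted p-value, the direction was the same under every alternative run, and of 414 such values for genes other than BCL9, 331 kept their side of the threshold, 65 fell outside it and 18 moved inside it. Only the 3 members and 7 other pathway genes that were called could fall outside it, so all 65 came from them. Each of these called genes passed in 1 to 3 of the 6 fits with a replicate left out.

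Samples with the same replicate number did not deviate together (mean correlation across genes -0.0795, and 0.0387 for different numbers). With the replicate block limma called 0 genes (3235 at an unadjusted p-value under 0.05), 0 members (10) and 0 other pathway genes (23), and the log2 fold change of BCL9, -0.99, had an adjusted p = 0.0656 in limma. The GC correction with the replicate block called 2 members, BST2 and IFI16. Precision was limited by depth for the 7 members with a mean under 10 reads.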
